A study of Mus musculus with 12 samples.

Results

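The 10 genes described here encode heat shock proteins and co-chaperones: Hspa1a, Hspa1b, Hspa8, Hsp105, Dnaja1, Dnajb1, Hsp90aa1, Hspd1, Hspe1 and Hspb1. They were taken by symbol from an Illumina mouse bead array, where 20 of its 45281 probes carry 1 of these 10 symbols out of 30789, and all 10 were among the 13190 genes tested. Heat shock proteins bind unfolded proteins and help them to fold, to be reassembled or to be handed on for degradation. HSP70 proteins (here Hspa1a, Hspa1b and the constitutive Hspa8) work in cycles of ATP hydrolysis, J proteins (Dnaja1, Dnajb1) bring them substrates and start the hydrolysis, and nucleotide exchange factors such as Hsp105 reset them. HSP90 (Hsp90aa1) acts on late folding states of kinases and receptors, Hspd1 and Hspe1 form the chaperonin chamber of mitochondria, and the small heat shock protein Hspb1 holds unfolded proteins without ATP. Many of these genes are switched on by heat shock factor 1, which binds repeats of the letters GAA and TTC facing each other in their promoters.

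The series compared murine cells by whether they bound phosphatidylcholine (PtC), a membrane lipid recognised as a self antigen by many B-1 B cells. All mice had a mixed C3H/C57BL/6 background, and the labels call the cells of every group chronic lymphocytic leukaemia (CLL) cells, also those of wild type mice. Cells of the genotype TCL1-192 gave 2 arrays each for PtC+ and PtC- cells of the peritoneum and for PtC+ and PtC- cells of the spleen. Young mice of the genotype TCL1 and wild type mice gave 1 PtC+ and 1 PtC- array each, all from the peritoneum. TCL1 is a human oncogene, and mice made to express it in B cells develop a disease resembling CLL. The sources used here do not give the promoter that drives it, what 192 stands for, ages, sorting gates, or whether both arrays of a group came from different animals. P-values therefore measure only the spread between these arrays, which may be technical. For the groups with 1 array, the spread was taken from the TCL1-192 groups.

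Levels are normalised log2 intensities, so that a difference of 1 is a doubling, and a probe counts as detected where its deposited detection p-value is under 0.05. Differences are given with the standard error (SE) from a limma model over all 12 arrays, with p-values adjusted by Benjamini-Hochberg over all 13190 genes and a threshold of 0.05. The PtC- peritoneal TCL1-192 array of replicate 2 stood apart, with a median raw signal of 219.2 and 10711 detected probes against 99.4 to 121.4 and 13825 to 15192 on the other arrays. B cell markers were detected throughout, 5 to 6 of 7 on each array, with Pax5 undetected on all. Of these, Ms4a1 was lower in TCL1-192 peritoneum than in wild type (-0.95, limma adjusted p = 0.029) and young TCL1 (-0.92, limma adjusted p = 0.041). Spn was higher in TCL1-192 spleen than in TCL1-192 peritoneum (0.78, limma adjusted p = 0.010). The other B cell markers tested passed in no comparison. In bulk samples fewer cells of a type and less RNA per cell cannot be told apart.

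The promoters of 3 members are printed because the genes that differed most between the groups, Hspb1, Hspa1a and Hspe1, each hold the letters that heat shock factors are known to bind. Promoters of 8 members were found in RefSeq (GRCm38.p6), Hsp105 under its current symbol Hsph1, and not those of Hspa8 and Hsp90aa1. In the 250 bases before the outermost start site, GAANNTTC or TTCNNGAA occurred in 6 of these 8 (75%) against 12.8% of 32851 mouse promoters of the same length. The members were counted at the outermost start only and the 32851 at every start site, so the shares are not of like units. Hspd1 has neither motif by this rule, but has both before another of its start sites. Each of these motifs reads the same on both strands, and where they overlap they are counted once for the promoter. Capitals mark the motifs in the following lines, which run from 5′ to 3′ and end at the base before the start site.
Hspb1: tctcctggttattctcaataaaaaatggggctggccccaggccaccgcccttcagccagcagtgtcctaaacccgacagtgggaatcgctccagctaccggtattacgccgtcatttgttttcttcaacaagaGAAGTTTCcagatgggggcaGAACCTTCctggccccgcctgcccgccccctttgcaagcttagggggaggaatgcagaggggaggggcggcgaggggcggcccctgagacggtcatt
Hspa1a: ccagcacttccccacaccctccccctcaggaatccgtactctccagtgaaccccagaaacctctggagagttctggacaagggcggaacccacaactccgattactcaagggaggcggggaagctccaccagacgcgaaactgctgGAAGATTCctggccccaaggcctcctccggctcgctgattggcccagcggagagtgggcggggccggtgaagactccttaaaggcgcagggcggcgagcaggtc
Hspe1: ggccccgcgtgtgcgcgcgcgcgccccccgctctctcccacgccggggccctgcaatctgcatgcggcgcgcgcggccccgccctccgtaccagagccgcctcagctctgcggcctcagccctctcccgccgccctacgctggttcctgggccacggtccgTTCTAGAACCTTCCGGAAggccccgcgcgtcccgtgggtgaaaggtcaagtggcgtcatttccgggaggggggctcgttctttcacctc
The Hspb1 window is chr5:135887669-135887918 on the plus strand, and its motifs begin 117 and 97 bases before the start. The Hspa1a window is chr17:34972157-34972406 on the minus strand, with 1 motif beginning 104 bases before the start. The same window of the neighbouring copy Hspa1b differs from it at 3 of 250 bases and holds the same motif. The Hspe1 window is chr1:55087898-55088147 on the plus strand and lies within Hspd1, which starts nearby and runs the other way. Its overlapping motifs form a run of GAA and TTC units that alternate, and 3 units in a row (GAANNTTC followed by NNGAA, or its reverse complement) occurred in 0.466% of the promoters. The array's values do not bear on binding at these letters.

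**Figure D1:**
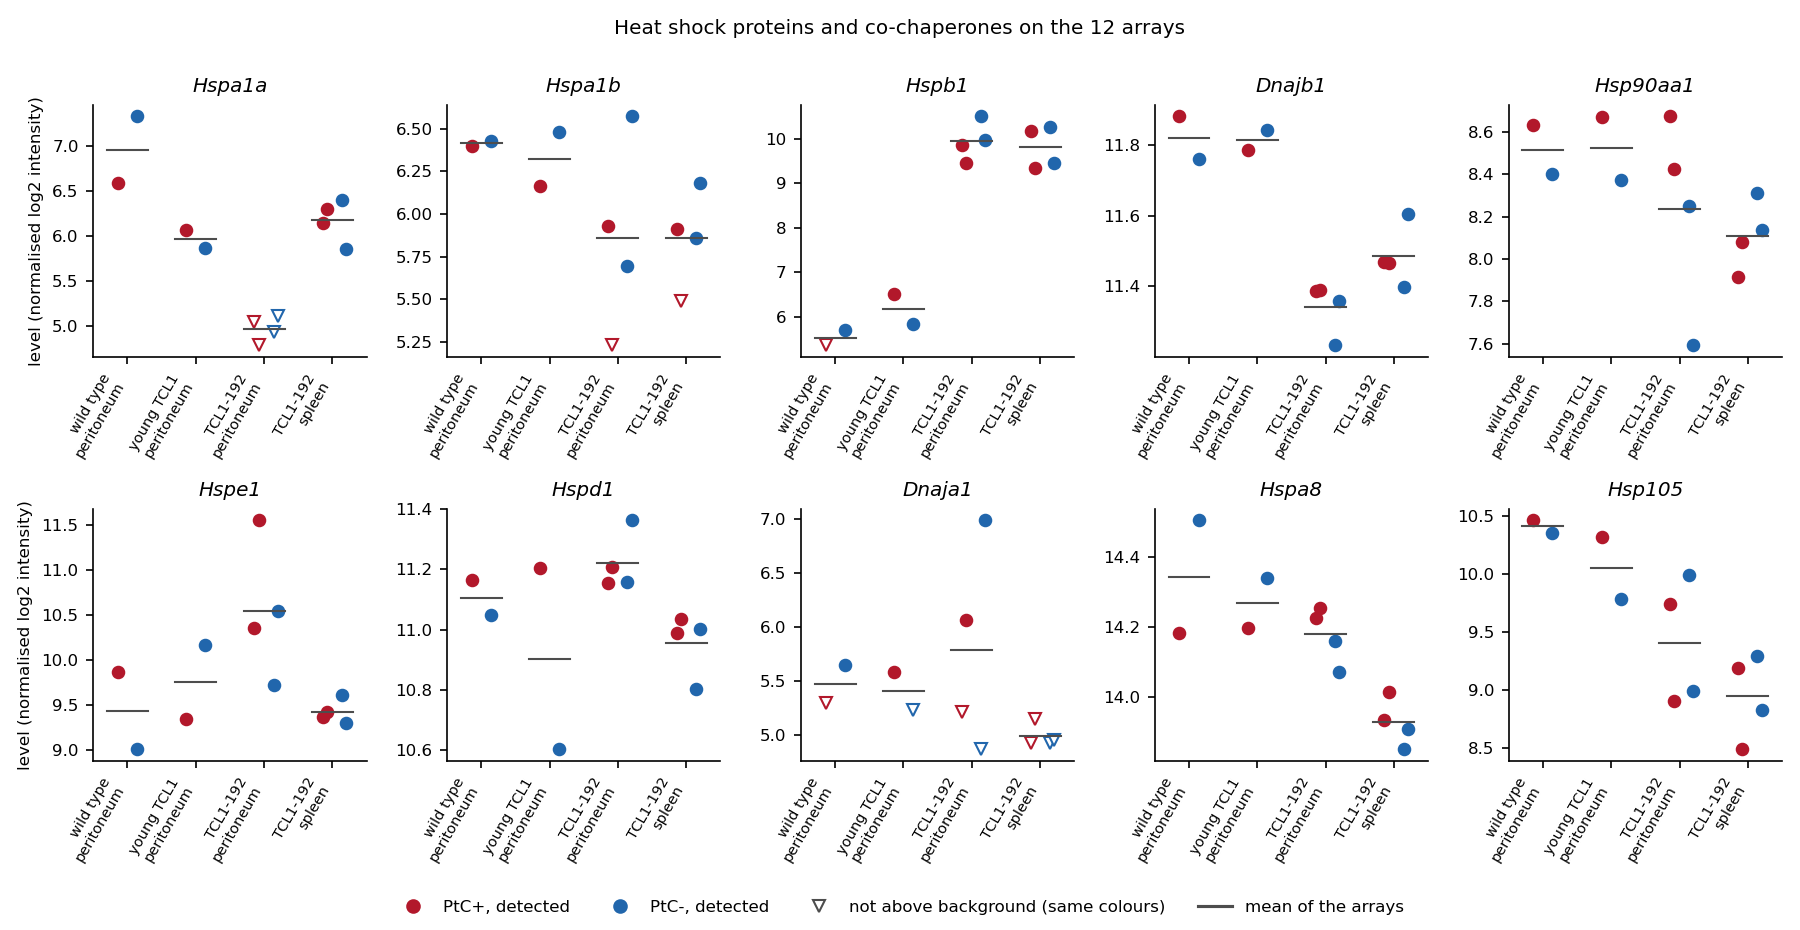
Levels (normalised log2 intensity) of the 10 members on the 12 arrays, in 4 columns for wild type, young TCL1, TCL1-192 peritoneum and TCL1-192 spleen, with axes that differ between panels. Red points are PtC+ and blue PtC-, open triangles lie below detection and lines are means; Hspb1 is near 10 on all TCL1-192 arrays and under 7 on the others.

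In the peritoneum, TCL1-192 cells carried far more Hspb1 RNA than wild type or young TCL1 cells, and less Hspa1a RNA. These comparisons ask what distinguishes TCL1-192 cells from peritoneal cells of wild type and young TCL1 mice. The groups may also differ in age and disease, which cannot be told apart from genotype here. Of the 10 members, 2 passed the test against wild type, 1 in each direction, where 27.4% of all genes passed (11.8% higher and 15.6% lower). Against young TCL1 it was again 2, the same genes in the same directions, where 19.7% of all genes passed (7.94% higher and 11.7% lower). Without the PtC- peritoneal array of replicate 1 the count was 5 in both comparisons, with Hspe1 and Dnaja1 higher and Hsp105 lower besides, where 45.9% and 40.4% of all genes passed. Without that of replicate 2, the array that stood apart, it was 4 against wild type (32.5% of all genes) and 2 against young TCL1. Without the PtC+ peritoneal array of replicate 1 it was 3 against wild type (23.8% of all genes), and without that of replicate 2 it was 1 against young TCL1 (12.4% of all genes). Between young TCL1 and wild type 0 members passed in limma, against 1.52% of all genes, and 1 (Hspa1a) had an unadjusted p under 0.05, as did 11.7% of all genes. Neither count sets the members apart from the background. Over the members the median difference from wild type was -0.22 and that from young TCL1 -0.19, against 0.03 and 0.01 over all genes. These comparisons share arrays, so they are not independent. Each fit that leaves out a TCL1-192 array leaves its group with 1 array. Without the PtC- peritoneal array of replicate 1, this is the array that stood apart, which also has the highest Dnaja1 level (6.99).

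Hspb1 (HSP27), which prevents aggregation of unfolded proteins and is known to protect cells from death, was at 5.35 in PtC+ wild type cells, below detection, and at 5.69 in PtC- wild type cells. In young TCL1 cells its level was 6.51 (PtC+) and 5.84 (PtC-). In TCL1-192 peritoneal cells it was 9.87 and 9.46 (PtC+) and 10.52 and 9.98 (PtC-), and in TCL1-192 spleen cells 10.18 and 9.36 (PtC+) and 10.27 and 9.45 (PtC-). All 8 TCL1-192 arrays thus lay above all 4 other arrays, with no overlap. Raw signals were 133.0 to 165.6 on those 4 arrays and 680.4 to 1444 on the TCL1-192 arrays. The share of all genes that separate the arrays in this way was not counted. Within the peritoneum, TCL1-192 arrays did not overlap wild type arrays for 43.2% of all genes, nor young TCL1 arrays for 33.1%.

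In the peritoneum, Hspb1 was 4.44 ± 0.34 log2 units (SE, 4 arrays against 2) higher in TCL1-192 than in wild type cells, a fitted difference of 21.7-fold (limma adjusted p = 0.000146). Hspb1 was detected on only 1 of the 2 wild type arrays, so the size of this fold depends on how the background is handled. Against young TCL1 cells it was 3.79 ± 0.34 higher, or 13.8-fold (limma adjusted p = 0.000454), the 15th largest rise among the 13190 genes. Young TCL1 minus wild type was 0.65 ± 0.39, which did not pass (limma adjusted p = 0.62). Leaving out any single TCL1-192 array gave 4.31 to 4.57 against wild type. Without background correction the difference was 2.84 and in the authors' normalised values it was 2.85, both past the threshold. The second Hspb1 probe was undetected on all 12 arrays.

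Within TCL1-192 cells, Hspb1 did not pass the test between tissues or PtC classes. Spleen minus peritoneum was -0.14 (95% interval -0.79 to 0.51), and PtC+ minus PtC- was -0.34 (-0.99 to 0.31), neither past the threshold. Erythroid markers also rose in TCL1-192 against wild type peritoneum, 4 of 4 tested, with summed log2 levels of 14.3 to 15.0 against 7.88 to 8.47 (Slc4a1 and Car1 undetected). In TCL1-192 spleen that sum was 10.2 to 10.9, and Hspb1 was at 9.36 to 10.27 there. Other cell type markers moved both ways against wild type. Among 6 T cell markers Cd3e and Cd3g were lower and Cd8b1 higher, among 15 macrophage markers 7 were lower and 3 higher, and Pecam1 was lower and Krt8 higher. The part of these markers in the Hspb1 and Hspa1a results was not tested. Over the 12 arrays the SD of Hspb1 was 2.04, higher than that of 99.1% of genes. The genes whose level over the 12 arrays was most like Hspb1 were Sostdc1 (Pearson r = 0.985), Trib2 (0.983), A530057A03Rik (0.982), Etv5 (0.982) and EG245190 (0.982). The arrays fall into 2 clusters in Hspb1 level, so these values mostly restate the gap between TCL1-192 and the other arrays.

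Hspa1a, the inducible HSP70, ran the other way in the peritoneum. Its level was 6.58 (PtC+) and 7.33 (PtC-) in wild type and 6.07 and 5.87 in young TCL1 cells. On the 4 TCL1-192 peritoneal arrays it was 4.79 to 5.11 and undetected on all. In TCL1-192 spleen it was 6.14 and 6.30 (PtC+) and 6.40 and 5.85 (PtC-), detected on all 4. The order of the means was therefore wild type, TCL1-192 spleen, young TCL1 and TCL1-192 peritoneum, where the spleen and young TCL1 levels overlapped and the other neighbours did not. Young TCL1 and TCL1-192 peritoneum did not overlap for 33.1% of all genes. For wild type and TCL1-192 spleen that share was not counted.

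The measured mean of Hspa1a was 4.97 in TCL1-192 and 6.95 in wild type peritoneum, a difference of -1.98 ± 0.20 (limma adjusted p = 0.000645). Since the lower side was undetected, the fold is a bound, with each undetected array set at the lowest level detected on it, and Hspa1a was at least 2.13-fold lower. Against young TCL1 cells, with a mean of 5.97, the difference was -0.999 ± 0.20 (limma adjusted p = 0.016), or at least 1.08-fold lower. Leaving out the PtC+ peritoneal array of replicate 2 gave -0.93 (limma adjusted p = 0.0517) there. Young TCL1 minus wild type was -0.99 ± 0.24, which did not pass (limma adjusted p = 0.129). Without background correction the differences were -0.85 from wild type and -0.40 from young TCL1, with an offset of 50 they were -1.28 and -0.56, and all passed. The bounds hold for the main setting only. The other Hspa1a probes were undetected on all arrays but 1, so the Hspa1a results rest on a single probe. Whether that probe also reads the neighbouring copy Hspa1b was not analysed here.

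The remaining HSP70 cycle genes did not pass the test between genotypes. Hsp105 (Hsph1), the exchange factor, was at 10.47 (PtC+) and 10.36 (PtC-) in wild type, at 10.32 and 9.79 in young TCL1, and at 9.75, 8.91, 9.99 and 8.99 in TCL1-192 peritoneum. All 4 TCL1-192 arrays lay below both wild type arrays, as one side did below or above the other for 43.2% of all genes. The difference was -1.01 ± 0.38 (limma adjusted p = 0.0952), and it passed under 4 of 9 other settings and without the PtC- peritoneal array of replicate 1 (-1.26, limma adjusted p = 0.00873). Dnajb1 (HSP40), a J protein that partners HSP70, was at 11.88 and 11.76 in wild type, 11.79 and 11.84 in young TCL1 and 11.23 to 11.39 in TCL1-192 peritoneum. Its difference from wild type was -0.48 ± 0.15 (limma adjusted p = 0.0532) and that from young TCL1 -0.47 ± 0.15 (limma adjusted p = 0.0685). In neither comparison did the groups overlap, as was so for 33.1% of all genes against young TCL1. The first difference passed under 6 of 9 other settings, and without the array that stood apart (-0.51, limma adjusted p = 0.0499). The second passed under 5 of 9.

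Hspa8, the constitutive HSP70 of the cytosol, was at 13.85 to 14.51 on all arrays, and its difference from wild type was -0.16 ± 0.14. Levels of different probes cannot be set against each other as amounts of RNA. Hspa1b, at 5.23 to 6.58, differed from wild type by -0.56 ± 0.32 and was detected on 10 of 12 arrays. It passed without the array that stood apart (-0.78, limma adjusted p = 0.0415). The J protein gene Dnaja1 was detected on only 4 of 12 arrays, at 5.58 to 6.99, so that its differences rest on few detected values. Hsp90aa1 was at 8.63 and 8.40 in wild type, 8.67 and 8.38 in young TCL1 and 7.59 to 8.68 in TCL1-192 peritoneum, a difference from wild type of -0.28 ± 0.22.

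The mitochondrial pair was also not past the threshold between genotypes. Hspe1, the lid of the chamber, was at 9.87 and 9.01 in wild type, 9.34 and 10.17 in young TCL1, and 10.36, 11.56, 9.73 and 10.55 in TCL1-192 peritoneum. The groups overlapped, and the difference from wild type was 1.11 ± 0.37 (limma adjusted p = 0.0641), which passed under 5 of 9 other settings and without either replicate 1 array of the peritoneum (limma adjusted p of 0.0221 and 0.00816). Hspd1, which forms the chamber wall, was at 11.16 and 11.05 in wild type and 11.15 to 11.36 in TCL1-192 peritoneum, a difference of 0.11 ± 0.16.

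**Figure D2:**
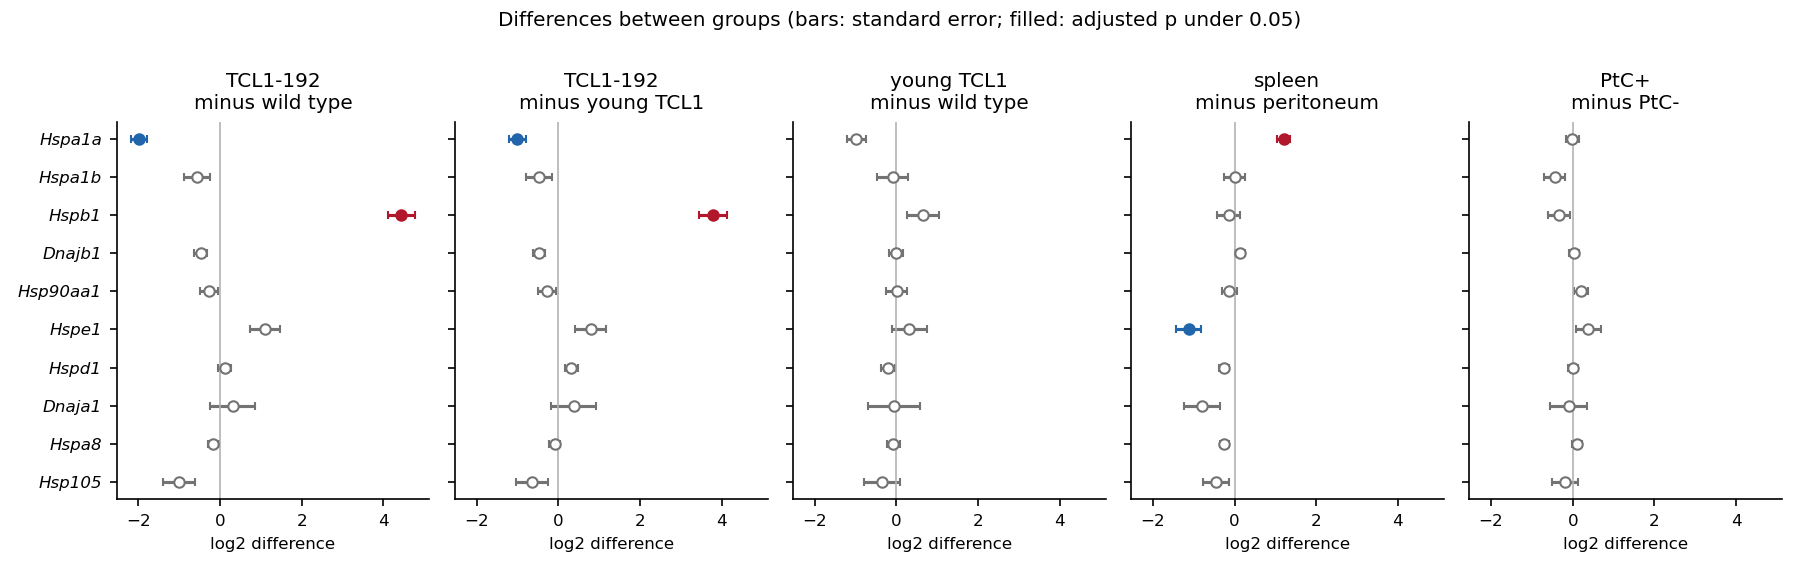
Differences between groups in log2 units for each member, with bars for the standard error and filled points for adjusted p under 0.05. Hspb1 at 4.44 and 3.79 and Hspa1a at -1.98 and -0.999 are the filled points of the first pair of panels, Hspa1a at 1.20 and Hspe1 at -1.12 those of spleen minus peritoneum, and the PtC panel has none.

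Between the tissues of TCL1-192 mice, Hspa1a was higher and Hspe1 lower in spleen cells. The series compared TCL1-192 cells of the spleen with those of the peritoneum, 4 arrays against 4 over both PtC classes. Here 2 of 10 members passed, 1 in each direction, against 26.7% of all genes (15.5% higher and 11.1% lower), so the members did not stand out from the background. The count was 3 without the PtC- peritoneal array of replicate 1, with Dnaja1 lower besides (45.1% of all genes passed there), and 1 wherever the Hspe1 call was lost. Their median difference was -0.20, against -0.02 over all genes. With median centring in place of quantile normalisation the median of all genes was 0.24 in this comparison, a shift of 0.26, and values of this size have no settled sign.

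Hspa1a was detected on all 4 spleen arrays and on 0 of 4 peritoneal arrays, with means of 6.17 and 4.97. Spleen minus peritoneum was 1.20 ± 0.17 (limma adjusted p = 0.003), or at least 1.24-fold higher in spleen. Without background correction it was 0.48 and with an offset of 50 it was 0.70, both past the threshold. Leaving out any single TCL1-192 array gave 1.07 to 1.34, past the threshold each time. The neighbouring copy Hspa1b did not pass between the tissues (0.01 ± 0.26, limma adjusted p = 0.99). Immediate-early genes respond within minutes to stimulation or cell handling, and between these tissues most of them were higher in spleen, like Hspa1a. Of 17 tested, 16 were higher in spleen, with a median difference of 3.14, and their summed log2 level was 16.2 to 16.3 in spleen and 13.4 to 13.9 in the peritoneum. Against wild type (14.8 to 15.0), 13 of 17 were lower in TCL1-192 peritoneum. In young TCL1 cells the sum was 14.3 to 14.7. The sum was higher in TCL1-192 spleen than in wild type, whereas Hspa1a was lower there (mean 6.17, against 6.58 in PtC+ and 7.33 in PtC- wild type cells). The transcription factor genes Fosb and Egr2 were, like Hspa1a, undetected on the 4 TCL1-192 peritoneal arrays and detected on the other 8. Btg2 and Nr4a1 were undetected on all arrays. The part of the immediate-early genes in the Hspa1a result was not tested.

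**Figure D3:**
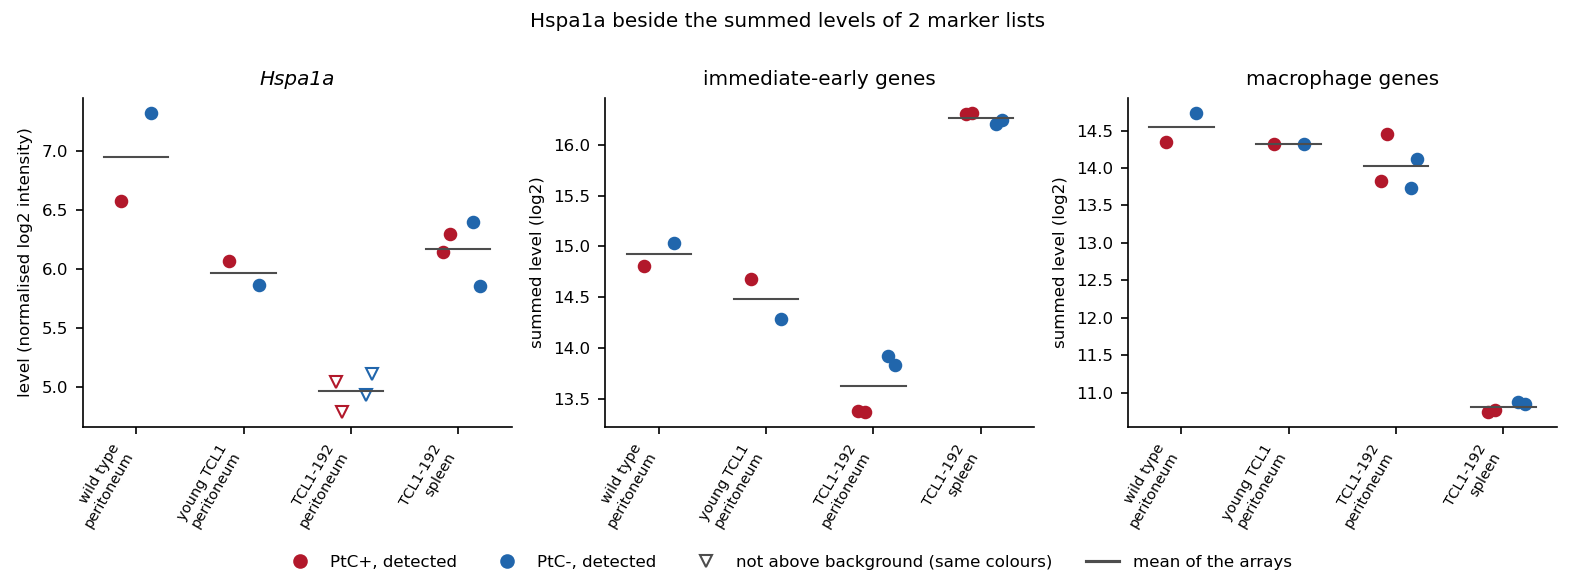
Hspa1a level and the summed levels of the immediate-early and macrophage lists (log2) on the 12 arrays, with points, triangles and lines as in the plot of members. Hspa1a and the immediate-early sum are lowest on the TCL1-192 peritoneal arrays, and the macrophage sum is lowest in spleen at 10.7 to 10.9.

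Hspe1 was at 9.37 and 9.43 (PtC+) and 9.61 and 9.30 (PtC-) in spleen, against 10.36, 11.56, 9.73 and 10.55 in the peritoneum. Every spleen array lay below every peritoneal array, as one side did below or above the other for 29.6% of all genes. The difference was -1.12 ± 0.30, or 2.18-fold lower in spleen (limma adjusted p = 0.0325). The call rested on few arrays. It was lost without the PtC+ peritoneal array of replicate 2, the highest (-0.82, limma adjusted p = 0.077), and without any of the 4 spleen arrays in turn (-1.20 to -1.04, limma adjusted p of 0.0817 to 0.114). With median centring it was -0.74 (limma adjusted p = 0.0799). Without the array that stood apart it was -0.92 (limma adjusted p = 0.0281).

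Macrophage markers fell with Hspe1. Of 15 tested, 12 were lower in spleen, where 3 of 16 were detected against 12 to 15 in the peritoneum, with a summed log2 level of 10.7 to 10.9 against 13.7 to 14.5. Csf1r, C1qa, Lyz2 and Timd4 were undetected in all 4 spleen arrays. The sum in wild type peritoneum was 14.3 to 14.7, where Hspe1 was at 9.87 and 9.01. The part of these markers in the Hspe1 result was not tested. Of the erythroid markers 4 of 4 were lower in spleen, and 3 of 3 mesothelial and stromal markers were higher (Krt8, Krt18 and Pecam1, with Msln, Upk3b, Col1a1 and Col3a1 undetected).

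The probes of Hspa8 and Hspd1 disagreed on the size of a fall in spleen. For Hspa8, the brightest probe (ILMN_1246458), used for the gene, was at 13.94, 14.02, 13.85 and 13.91 in spleen and 14.23, 14.26, 14.16 and 14.07 in the peritoneum, a difference of -0.25 (limma adjusted p = 0.16 over genes). The gene's difference passed under 2 of 11 other settings, the mean of a symbol's probes among them. A second probe (ILMN_1249586) was at 12.51 to 12.81 in spleen and 13.03 to 13.50 in the peritoneum. With each probe tested on its own, an alternative chosen after seeing the data, its difference was -0.62 ± 0.16 (limma adjusted p = 0.0269 over 18100 probes). The third (ILMN_2918479) was at 10.34, 10.88, 11.40 and 12.03 in spleen and 12.91, 12.54, 13.11 and 12.50 in the peritoneum, a difference of -1.60 ± 0.24 or 3.03-fold lower (limma adjusted p = 0.00392). On all 3 probes every spleen array lay below every peritoneal array. By the probe used for each gene, the tissues did not overlap, in either direction, for 29.6% of all genes. Which transcript each probe reads was not analysed here.

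For Hspd1, the brighter probe (ILMN_2713841) was at 10.80 to 11.04 in spleen and 11.15 to 11.36 in the peritoneum, a difference of -0.26 (limma adjusted p = 0.17 over genes). The dimmer probe (ILMN_2639036) was at 5.97 and 6.52 (PtC+) and 7.25 and 7.35 (PtC-) in spleen, against 7.70, 7.66, 8.08 and 7.35 in the peritoneum. Its difference was -0.92 ± 0.21 (limma adjusted p = 0.0187 over probes). Counting a member where at least 1 of its probes passed, 4 of 10 members passed, 1 higher and 3 lower (Hspe1, Hspd1 and Hspa8), against 27.9% of all genes by the same rule. That rule favours genes with several probes. The mean of a symbol's probes gave the same numbers, against 25.7% of all genes, with Hspa8 at -0.82 and Hspd1 at -0.59.

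**Figure D4:**
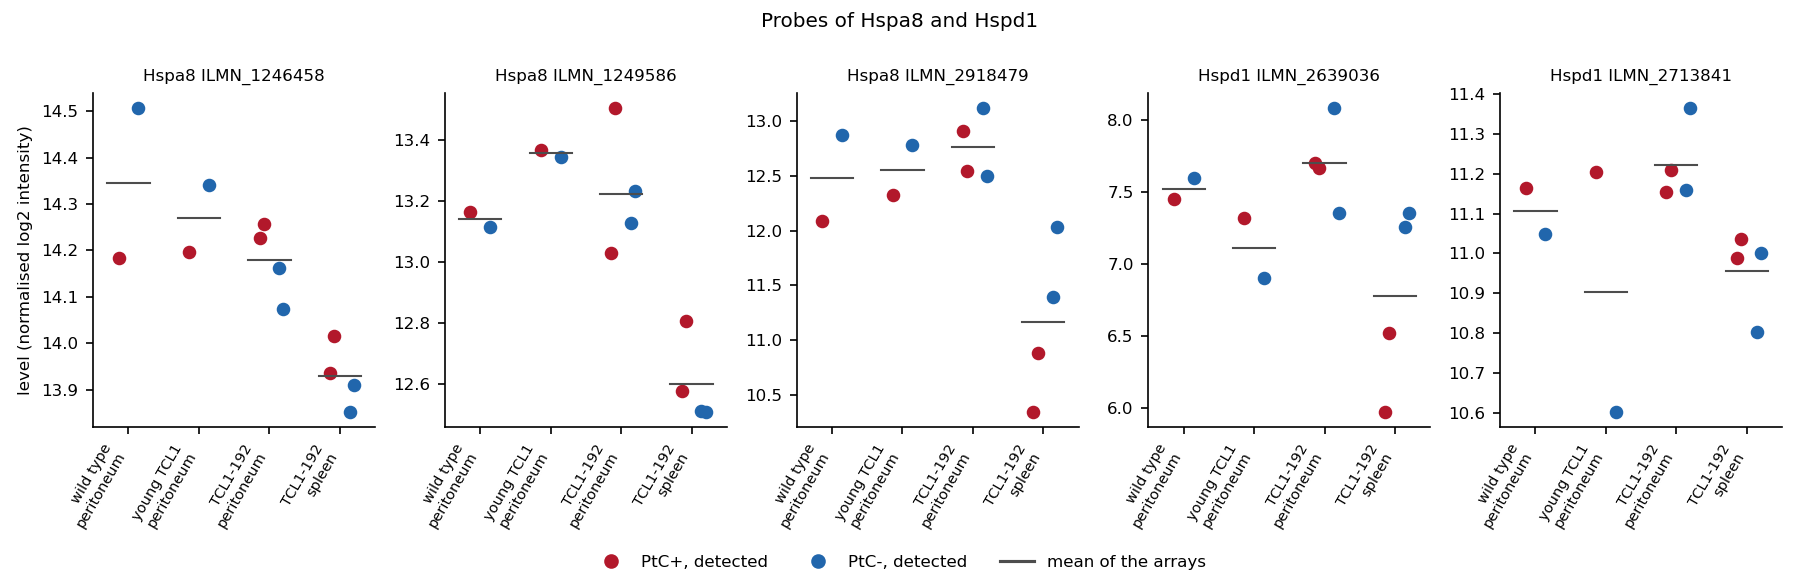
Levels (normalised log2 intensity) on the 12 arrays of the 3 Hspa8 probes and the 2 Hspd1 probes, each panel with its own axis, PtC+ in red, PtC- in blue and lines for means. The third Hspa8 panel spans 10.34 to 13.11, while the first spans only 13.85 to 14.51.

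The other members did not pass between the tissues. Hsp105 was at 9.19 and 8.49 (PtC+) and 9.29 and 8.82 (PtC-) in spleen, overlapping the peritoneum, at -0.46 ± 0.31 (limma adjusted p = 0.32). Dnajb1 was at 11.47, 11.47, 11.40 and 11.61 in spleen, all above the peritoneal 11.23 to 11.39, but only by 0.14 ± 0.12. One side lay wholly above or below the other for 29.6% of all genes. Hspa1b differed by 0.01 ± 0.26 and Hsp90aa1 by -0.12 ± 0.18. Dnaja1 was undetected on all 4 spleen arrays and on 2 of 4 in the peritoneum.

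No member passed the test for PtC binding. This is the comparison the series was built on, 4 PtC+ against 4 PtC- TCL1-192 arrays over both tissues. Of the members 0 passed, as did 0 (0%) of all genes in the limma fit, although 8.56% of genes had an unadjusted p under 0.05 and 0 members did. Hspe1 had the largest positive difference, 0.38 (95% interval -0.33 to 1.09), and Hspa1b the largest negative one, -0.44 (-1.05 to 0.17). For Hspa8, Hspd1 and Dnajb1 the differences were 0.11 (-0.17 to 0.39), 0.02 (-0.28 to 0.31) and 0.03 (-0.26 to 0.32). These narrow intervals are those of the brightest probes. The dimmer Hspd1 probe differed by -0.54 ± 0.21 and the third Hspa8 probe by -0.59 ± 0.24, neither past the threshold (limma adjusted p = 0.603 over probes for each). The interval of Dnaja1 (-1.15 to 0.95) leaves a large change possible.

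The PtC difference of Hsp90aa1, which encodes the inducible HSP90, had opposite signs in the tissues. In TCL1-192 peritoneum it was at 8.68 and 8.43 in PtC+ and at 8.25 and 7.59 in PtC- cells, and in spleen at 7.92 and 8.08 in PtC+ and at 8.31 and 8.14 in PtC- cells. PtC+ cells were thus 0.63 higher in the peritoneum and 0.22 lower in spleen, without overlap of the 2 PtC+ and 2 PtC- arrays in either tissue. The share of all genes with this pattern was not counted, so the pattern does not set Hsp90aa1 apart. The test of the difference between the tissues gave -0.86 ± 0.36 and did not pass (limma adjusted p = 0.427, unadjusted p = 0.0485). Of all genes 0 (0%) passed this test, and 11.5% had an unadjusted p under 0.05. The single PtC+ arrays were higher than the PtC- arrays by 0.23 in wild type and 0.30 in young TCL1 peritoneum. A dimmer Hsp90aa1 probe, detected on 3 arrays, gave -0.70 ± 0.29 (limma adjusted p = 0.449 over probes). The lowest value, 7.59, was on the array that stood apart, and without it the difference between the tissues was -0.53 (limma adjusted p = 0.43).

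The members did not move as a block over the arrays. Among their 45 pairs the Pearson correlation over the 12 arrays ranged from -0.94 to 0.65 with a median of 0.07, and 0 pairs exceeded 0.7. The lowest was that of Hspb1 and Dnajb1, the one high and the other low in TCL1-192 cells. The SD over the arrays ranged from 0.19 for Hspa8, in the lowest 3.6% of genes, to 2.04 for Hspb1. The genes most like the mean of the members, each centred on its own mean, were 9130017N09Rik (r = 0.915), Nat8l (0.912), Adfp (0.910), 1500019G21Rik (0.907) and Ppp1r14b (0.897). These correlations are descriptions over arrays that share genotype and processing.

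Other chaperone genes were compared as a list of 115, of which 110 were on the array and 92 were tested. Between spleen and peritoneum 10 rose and 15 fell (27.2% of those tested, against 26.7% of all genes), with a median of -0.12. With median centring it was 10 higher and 1 lower, so most of the falls depend on the scaling. Leaving out single TCL1-192 arrays gave 9 to 36 in all, the most without the PtC- peritoneal array of replicate 1 and the fewest without the PtC- spleen array of replicate 2. Hspa12b, a distant HSP70 relative, was undetected in the peritoneum and at least 2.19-fold higher in spleen (1.95 ± 0.20, limma adjusted p = 0.0011). The small heat shock protein gene Hspb6 rose by 0.97, Dnajc13 by 0.86, Dnajc25 (2010203O07Rik on the array) by 0.84, the mitochondrial protease gene Lonp1 by 0.84 and Dnajc7 by 0.71.

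On the lower side in spleen, Dnajc12 (undetected in spleen) differed by -1.20, or at least 1.32-fold. Cdc37l1, a relative of the HSP90 co-chaperone Cdc37, differed by -1.08 and St13, the HSP70-interacting protein Hip, by -0.94. Dnajc3 (Dnajc3a on the array), a J protein of the endoplasmic reticulum, differed by -0.84, the chaperonin subunit gene Cct4 by -0.73 and the HSP90-binding immunophilin gene Fkbp4 by -0.72. Of 13 cytosolic chaperonin and prefoldin genes, 5 were lower (Cct2, Cct3, Cct4, Cct6a and Pfdn5) and 0 higher, where 11.1% of all genes were lower and 15.5% higher. Their median was -0.37. With median centring 0 were lower and 0 higher, with a median of 0.01.

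Against wild type peritoneum, 12 of the 92 rose and 7 fell in TCL1-192 cells (20.7%, against 27.4% of all genes). With median centring 1 rose and 8 fell, and leaving out single arrays gave 9 to 33 in all, the most again without the PtC- peritoneal array of replicate 1. Cacybp, a binding partner of HSP90, was undetected in wild type and at least 2.49-fold higher (1.53 ± 0.34, limma adjusted p = 0.016). Bag2 (1.01, at least 1.33-fold) and Bag3 (0.79), regulators of HSP70, St13 (0.94), the mitochondrial J protein gene Dnajc15 (0.96) and Sil1 (0.89), an exchange factor of the endoplasmic reticulum, rose as well. Of 11 regulators of HSP70, 5 rose and 1 fell, where 11.8% of all genes rose and 15.6% fell, with a median of 0.46, against 0, 1 and a median of -0.03 with median centring.

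Lower genes in TCL1-192 peritoneum were Dnajc5 (-1.34), a synaptic vesicle J protein in nerve cells, and Dnajc13 (-1.23), which acts at endosomes. The mitochondrial HSP70 gene Hspa9 (-0.83), the exchange factor gene Hyou1 (-0.83), Bag6 (Bat3 on the array, -0.76) and the autophagy receptor gene Sqstm1 (-0.71) followed. Against young TCL1 cells 5 rose and 3 fell (8.7%, against 19.7% of all genes, and 17 in all without that same array), led by Dnajc13 (-1.11), Hspa2 (0.89), Sqstm1 (-1.02) and Sil1 (0.83). Between young TCL1 and wild type 0 of 92 passed and 5 had an unadjusted p under 0.05 (5.43%, against 11.7% of all genes), with Hyou1 (-1.01), Cacybp (1.80), Dnajc5 (-0.78) and Dnajc2 (-0.74) at the largest moderated t.

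For PtC binding 0 of 92 passed and 7 had an unadjusted p under 0.05 (7.61%, against 8.56% of all genes), with Hspa12a (-0.62), Dnajc12 (0.83), Cacybp (0.79) and Dnajc16 (-0.41) at the largest moderated t, each at limma adjusted p = 0.58. For the PtC difference between tissues 0 of 92 passed and 9 had an unadjusted p under 0.05 (9.78%, against 11.5% of all genes), with Hspa5 (-1.23), Dnajc12 (-1.44), Grpel1 (-1.01) and Dnajc15 (-1.11) at the largest, each at limma adjusted p = 0.409. The heat shock factor genes Hsf1 and Hsf2 and the gene of the factor-binding protein Hsbp1 did not pass in any of the 6 comparisons.

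**Figure D5:**
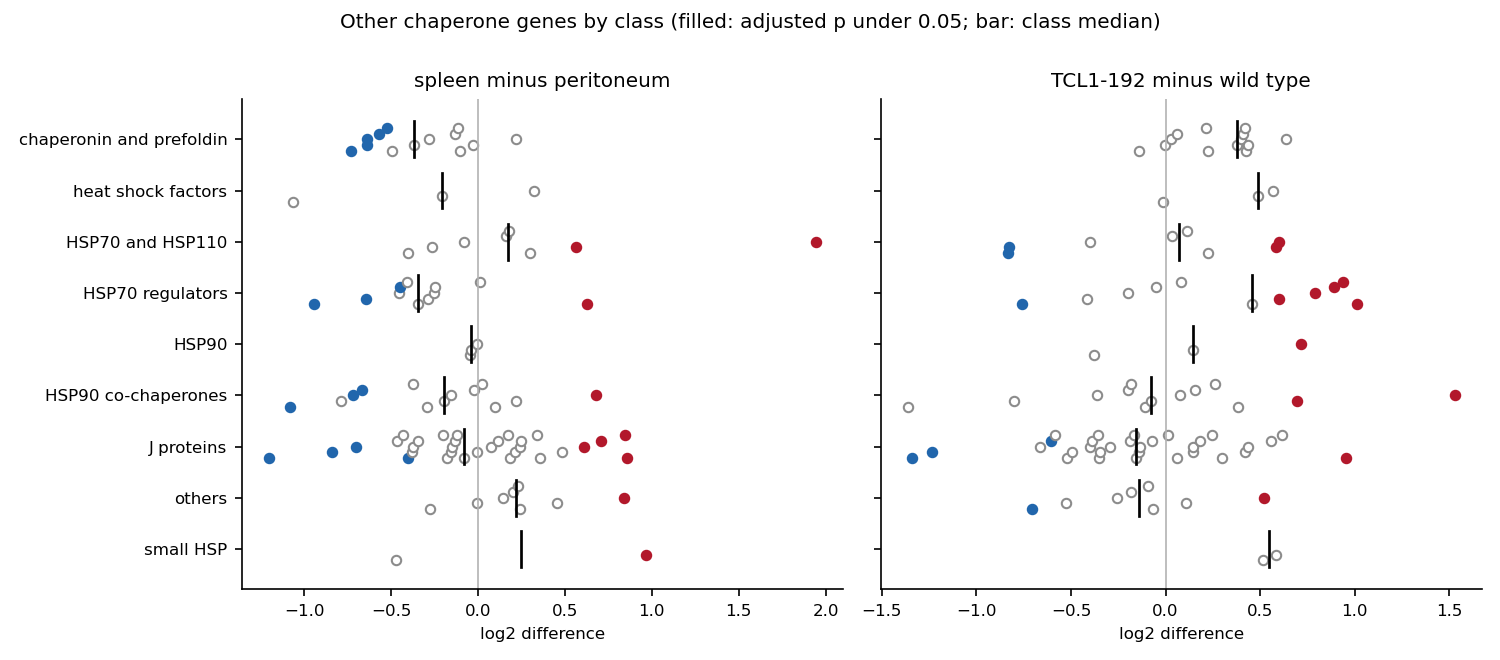
Log2 differences of the 92 other chaperone genes by class, for spleen minus peritoneum and for TCL1-192 minus wild type peritoneum, which share the TCL1-192 peritoneal arrays. Filled points passed (10 higher and 15 lower, and 12 higher and 7 lower) and vertical bars are class medians, such as -0.37 for chaperonin and prefoldin genes in the first panel.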

How the data were processed

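The authors deposited a non-normalised table with a signal intensity per probe and array and, per the file headers, a detection p-value for each, and a second table of intensity values normalised by the authors with a tool not given in the sources used here. Per the labels, Trizol and RNeasy were used for RNA and Ambion MessageAmp for biotin-labelled cRNA. From the first table, R 4.3.3 with limma 3.58.1 (neqc with an offset of 16) gave background-corrected, quantile-normalised log2 values. The 18100 probes detected on at least 2 arrays were kept, with the brightest probe per symbol. The model had 8 group means, 4 residual and 3.13 prior degrees of freedom, and 6 two-sided contrasts. The model was tested on simulated data. Alternatives were other background corrections, scalings, filters, probe rules, priors and array weights, a replicate block, and single arrays left out. All members were named, and other chaperones by size or moderated t (6 each way, or 4). Members and lists were chosen with earlier results of these data known. Promoters came from RefSeq (GRCm38.p6). Depth is not defined for arrays, and the number of arrays limits the precision. No pair of arrays was a duplicate (highest correlation 0.994).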

Additional observations from a re-analysis of the deposited data

Results flagged for a closer look

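Hsp90aa1 was the only member whose PtC difference ran in opposite directions in the TCL1-192 tissues with no overlap between PtC+ and PtC- arrays in either. Each tissue had 2 arrays of each class, and the share of all genes with this pattern was not counted. The difference of the differences, spleen less peritoneum, was -0.86 ± 0.36 and did not pass (limma adjusted p = 0.427). Leaving out single TCL1-192 arrays gave -1.19 to -0.53. The -1.19 came without the PtC- peritoneal array of replicate 1. That fit leaves the array that stood apart, which has the lowest Hsp90aa1 level (7.59), alone in its group. No group had the 4 arrays needed to test for an outlying array.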

How the results depend on the processing

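With median centring in place of quantile normalisation, 1 member and 11 other chaperones passed between spleen and peritoneum, 9 other chaperones against wild type, and 1 other chaperone and 125 genes between young TCL1 and wild type. The split of all calls went from 2051 higher and 1465 lower to 2689 and 350 (spleen minus peritoneum), from 1561 and 2052 to 499 and 2309 (TCL1-192 minus wild type), and from 1047 and 1547 to 346 and 1882 (TCL1-192 minus young TCL1). Differences that had not passed changed sign there: spleen minus peritoneum for Hspb1 (0.31), Hsp90aa1 (0.33), Hspd1 (0.059) and Hsp105 (0.022), PtC+ minus PtC- for Hspa1a (0.0027), Dnaja1 (0.024) and Hsp105 (0.013), the PtC difference between tissues for Hspd1 (-0.48), and Hspd1 against wild type (-0.19) and young TCL1 (-0.0012), with Hsp90aa1 at -0.0021 between young TCL1 and wild type. With no filter on dim probes, 1 member passed between the tissues and 1 other chaperone between young TCL1 and wild type. With the mean of a symbol's probes 4 members passed between the tissues, and differences that had not passed changed sign for Hspd1 (PtC -0.26, between tissues -0.42) and Hspa8 (PtC -0.12, against wild type 0.069, young TCL1 minus wild type 0.071). With each probe on its own, chosen after seeing the data, 4 members passed between the tissues. Without background correction 5 members passed against wild type, 16 other chaperones against young TCL1, and 2 other chaperones and 408 genes between young TCL1 and wild type, while Hspa1b changed sign between the tissues (-0.0048). The authors' normalised values gave 5, 16, 2, 411 and -0.0022 for these. An offset of 50 gave 4 members, 15 and 2 other chaperones, Hspa1b at -0.0105 and a PtC difference of 0.00398 for Hspa1a. An intensity trend gave 5, 18 and 2 with 355 genes between young TCL1 and wild type, array weights gave 2 other chaperones and 368 genes there, and detection on at least 6 arrays 83 genes.

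Leaving out single TCL1-192 arrays gave 1 to 3 members, 9 to 36 other chaperones and 1817 to 5953 genes between the tissues. Against wild type it gave 2 to 5, 9 to 33 and 2521 to 6048, against young TCL1 1 to 5, 4 to 17 and 1640 to 5328, and between young TCL1 and wild type 0 to 1, 0 to 2 and 59 to 504. For PtC it gave 0 to 6 other chaperones and 0 to 1533 genes, and for the PtC difference between tissues 0 to 1 member, 0 to 6 and 0 to 1644. The highest counts came without the PtC- peritoneal array of replicate 1. Differences that had not passed spanned 0 for spleen minus peritoneum in Hspa1b (-0.22 to 0.23), Hspb1 (-0.35 to 0.0617) and Hsp90aa1 (-0.29 to 0.0395). For PtC they did so in Hspa1a (-0.14 to 0.13), Dnajb1 (-0.0219 to 0.0811), Hspd1 (-0.0360 to 0.0665), Dnaja1 (-0.63 to 0.43) and Hsp105 (-0.44 to 0.0577). For the PtC difference between tissues they did so in Hspa1a (-0.0694 to 0.48), Hspa1b (-0.21 to 0.67), Dnaja1 (-0.68 to 1.45), Hspa8 (-0.0728 to 0.0159) and Hsp105 (-0.56 to 0.44), and Dnaja1 spanned -0.22 to 0.84 against wild type and -0.16 to 0.91 against young TCL1. The causes were not tested.

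The labels do not say whether replicate numbers pair the TCL1-192 arrays. Deviations of same-numbered arrays correlated at 0.054 to 0.26 over the 6 pairs of groups, with 4 of 6 over 0.1, so the pairing was not taken as shown. A fit with the replicate number as a block gave 3884 genes, 25 other chaperones and 3 members between the tissues, Hsp105 among them at -0.46 (limma adjusted p = 0.0498), and changed no other call of a member. Few arrays limit all results, and levels of Dnaja1, Hspa1b and Hspa1a lie near the background.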
